A study of Mus musculus with 6 samples.

Results

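The 10 genes described here encode the transcription factors that set heart muscle and chamber identity: Irx4, Hey2, Nr2f1, Nr2f2, Tbx5, Tbx20, Gata4, Nkx2-5, Mef2c and Hand2. They were taken by symbol from the 21989 genes of the deposited expression table, and all 10 were found. RNA sequencing had been done on polyadenylated RNA from tissue labelled left ventricle of male C57BL/6 mice. One group had received ISO under the skin at 10 mg/kg per day for 3 weeks, which the submitters call a heart failure model, and the other an equal volume of saline. The labels do not spell out ISO. Each group held 3 libraries, numbered here as in the labels. No age and no allele is given in the labels. They speak of biological repeats without tying a library to an animal, so every p-value refers to the spread of these libraries. Values are FPKM, fragment counts scaled to gene length and library total, so levels of different genes are compared per length throughout.

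These factors act as a network. Gata4 (a zinc-finger factor), Nkx2-5 (a homeobox factor), Tbx5 and Tbx20 (T-box factors), Mef2c (a MADS-box factor) and Hand2 (a basic helix-loop-helix factor) bind near each other at heart muscle genes in both chambers. Irx4 and Hey2 are best known for keeping atrial genes off in ventricular muscle, while Nr2f1 and Nr2f2, the COUP-TF nuclear receptors, favour atrial identity. Several are also made outside muscle, Nr2f2 in venous and lymphatic endothelium and Gata4, Tbx20 and Hand2 in fibroblasts or endocardium.

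Library totals ran from 2776152 to 9862363 reads, and the lowest was that of saline 3. Saline 3 stood apart from the other libraries across genes (Pearson r across genes 0.788 to 0.830 with each of them, against 0.918 to 0.973 among the other 5). The label left ventricle was checked against chamber genes. Summed over 13 atrial genes (among them the light chain Myl7, sarcolipin Sln and the natriuretic peptide Nppa) the level was 27092, 24609 and 10847 FPKM (saline libraries 1, 2, 3) against 18599, 18720 and 15562 (ISO libraries 1, 2, 3). Summed over 8 ventricular genes (among them the light chains Myl2 and Myl3) it was 3611, 1037 and 14204 FPKM (saline libraries 1, 2, 3) against 2980, 2918 and 397 (ISO libraries 1, 2, 3). The atrial sum was above the ventricular sum in every library except saline 3, so the label goes against these genes in 5 libraries. Bmp10, a growth factor that is known from the right atrium, was at 2.17 FPKM in saline 3 and at 10.8 to 82.3 FPKM in the other 5 libraries. Saline 3 and ISO 3 also held airway RNA, with the club cell gene Scgb1a1 at 201 and 182 FPKM against 0.869 to 13.2 FPKM in the others. Saline 3 held liver RNA, with albumin (Alb) at 306 FPKM against 1.91 to 16.4 FPKM elsewhere. Over the whole lists, 11 lung genes summed to 9.31 to 218 FPKM in saline and 2.36 to 197 FPKM in ISO. Scgb1a1 alone made up most of the highest sums, those of saline 3 and ISO 3, so they add little to that gene. Nkx2-1, the lung epithelial factor, was at 0 in all libraries. The 5 liver genes summed to 2.83 to 661 FPKM in saline and 5.26 to 21.6 FPKM in ISO. The part of such tissue differences in the results below was not tested unless a value is given.

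The order of the 10 factors by level put the pan-cardiac ones above those of chamber identity. Over all 6 libraries the means were 35.0 ± 8.53 FPKM for Hand2, 30.7 ± 15.4 for Nkx2-5, 25.2 ± 6.48 for Gata4 and 23.3 ± 11 for Tbx5 (SD, n = 6). Below them came Tbx20 at 13.8 ± 4.56 FPKM and Mef2c at 10.5 ± 1.8 FPKM. The chamber factors were at 7.80 ± 1.67 FPKM for Nr2f2, 5.12 ± 3.37 for Irx4, 3.45 ± 1.74 for Hey2 and 3.08 ± 1.51 for Nr2f1. The first 4 did not separate from each other: Hand2 exceeded Nkx2-5, Nkx2-5 exceeded Gata4 and Gata4 exceeded Tbx5 in 4 of 6 libraries each. Tbx5 exceeded Tbx20, and Mef2c exceeded Nr2f2, in all 6. Hey2 and Nr2f1 did not separate, with Hey2 higher in 4 of 6. Relative to its mean, Irx4 varied most (SD 65.7% of the mean) and Mef2c least (17.1%).

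**Figure D1:**
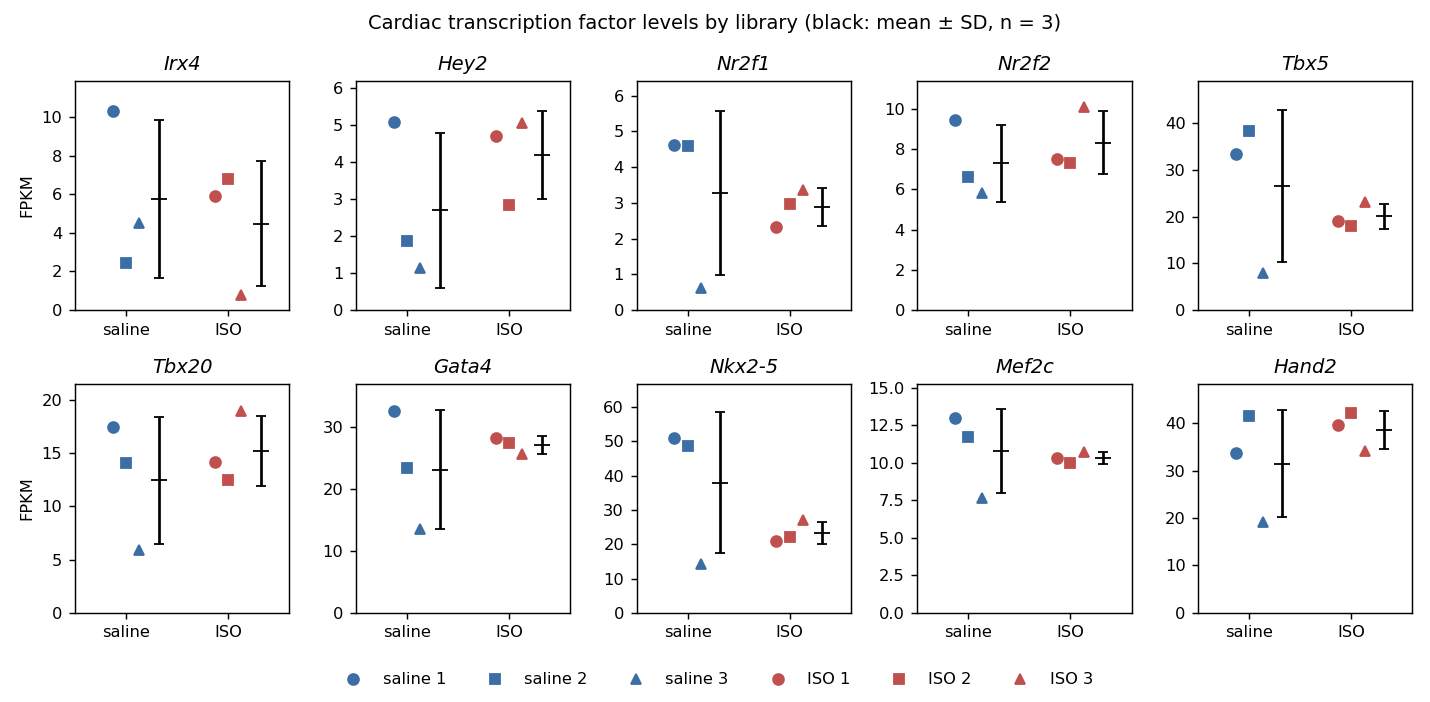
FPKM of each of the 10 factors in each library, with saline in blue and ISO in red, one marker shape per replicate number, and the mean ± SD of 3 libraries in black. Saline 3 is the lowest point for 9 of the 10 factors, and ISO 3 is the lowest for Irx4.

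The promoters of 3 factors are shown because these genes gave the widest differences between libraries or groups (Irx4 and Nkx2-5) or held the GATA matches (Hand2). Each is the 250 bases before a RefSeq start on GRCm38.p6, read along the gene's strand, with motif matches in capitals.
Nkx2-5, chr17:26841566-26841815, minus strand: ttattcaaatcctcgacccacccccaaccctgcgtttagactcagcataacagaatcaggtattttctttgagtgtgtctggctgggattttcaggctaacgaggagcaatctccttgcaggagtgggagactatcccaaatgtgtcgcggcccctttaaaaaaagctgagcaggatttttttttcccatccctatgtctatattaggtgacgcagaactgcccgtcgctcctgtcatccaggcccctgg
Irx4, chr13:73260247-73260496, plus strand: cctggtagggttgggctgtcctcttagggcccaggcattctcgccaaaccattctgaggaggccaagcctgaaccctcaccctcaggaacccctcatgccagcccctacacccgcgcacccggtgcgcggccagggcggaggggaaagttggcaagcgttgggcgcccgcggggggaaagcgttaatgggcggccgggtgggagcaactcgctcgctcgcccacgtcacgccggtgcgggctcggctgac
Hand2, chr8:57320733-57320982, plus strand: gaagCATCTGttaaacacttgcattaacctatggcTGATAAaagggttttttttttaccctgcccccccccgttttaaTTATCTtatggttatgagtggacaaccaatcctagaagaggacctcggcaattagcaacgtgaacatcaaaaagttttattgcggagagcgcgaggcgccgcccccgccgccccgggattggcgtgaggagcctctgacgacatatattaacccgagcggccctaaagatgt
The search covered both strands for the GATA factor letters AGATAA as well as TGATAA, the Nkx2-5 letters TNAAGTG, the T-box letters AGGTGT, the Hey letters CACGTG as well as CACGCG, the Hand E-box letters CATCTG, the COUP-TF half-site letters AGGTCA and the TATA letters TATAAA. The Hand2 window held 2 GATA matches (positions -215 to -210 and -172 to -167 from the start) and a Hand E-box (-246 to -241), and none of them overlapped another. The Nkx2-5 and Irx4 windows held none of these letters. Both windows lie inside the gene spans given below, so the bases before the outermost starts of these genes were not searched. The table held 11 windows for 8 of the 10 factors, since Nr2f1 and Mef2c have several starts. Counted per window, as over all 32851 promoters of the same length, a GATA match lay in 1 of the 11 (16.6% of all promoters). The Hand E-box lay in 3 (14.4%), the T-box motif in 1 (11.8%), the COUP-TF and TATA motifs in 2 each (14.0% and 12.4%), and the Nkx2-5 and Hey motifs in 0 (10.1% and 12.9%). The Irx4 window was rich in G and C (68.8%), and those of Nkx2-5 and Hand2 were at 49.2% each, against a median of 52.4% over all promoters.

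None of the 10 factors differed between ISO and saline beyond the spread of the libraries. With limma on log2(FPKM + 1) over 12269 genes, 0 of 10 passed an adjusted p of 0.05, as 0% of all genes did, and 0 of 10 had an unadjusted p under 0.05, against 6.31% of all genes. In no factor did the 3 ISO libraries lie wholly above or below the 3 saline libraries, while 16.5% of all genes showed such a separation (3.72% with ISO lower). By mean log2 difference 6 factors were higher and 4 lower in ISO (median 0.12, against 0.20 over all genes tested, of which 31.9% were lower). Saline 3 was the lowest of the 6 libraries for 9 factors, and for 52.8% of all genes.

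Saline 3 lay below the mean of saline 1 and 2 for all 10 factors. The difference on the log2(FPKM + 1) scale between saline 3 and the mean of saline 1 and 2 had a median of -0.98 over the factors and of -0.38 over all genes tested. Among all genes it varied with gene length, with medians of 0.29 below 1500 bases, -0.25 from 1500 to 3000, -0.52 from 3000 to 6000 and -0.60 above 6000 bases. Nkx2-5, the shortest of the factors at 1705 bases, was at -1.75, far below the median of its length class. Tbx5 (5774 bases) was at -2.04 and Nr2f1 (4068 bases) at -1.79. Irx4 (3894 bases) was at -0.17 and Nr2f2 (5837 bases) at -0.39, both above the median of their class. The factors thus did not share a single shift in saline 3, and each factor below is given with and without this library.

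**Figure D2:**
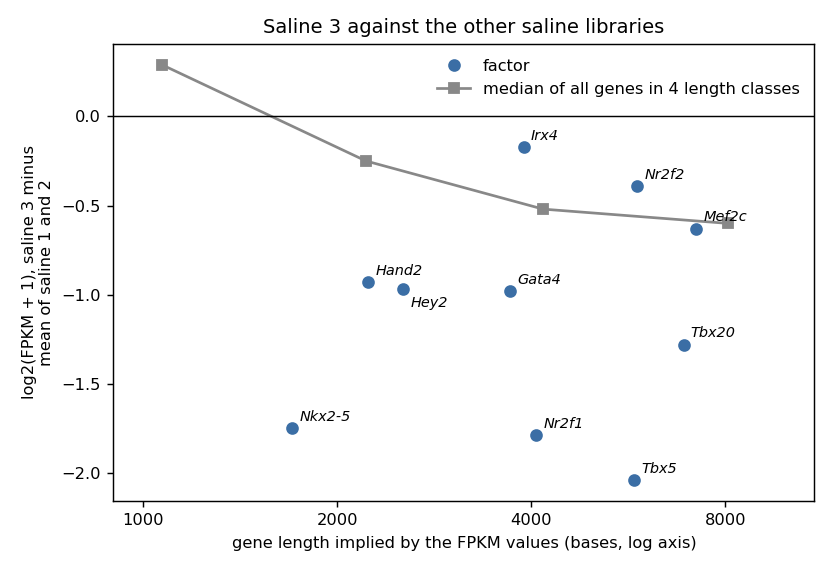
Difference on the log2(FPKM + 1) scale between saline 3 and the mean of saline 1 and 2 (vertical) against gene length in bases (horizontal, log axis), for the 10 factors in blue and as medians of all genes tested in 4 length classes in grey. Nkx2-5, Tbx5 and Nr2f1 lie lowest, between -2.04 and -1.75, and Irx4 lies near 0.

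Without saline 3, which leaves 2 saline libraries, Nkx2-5 and Tbx5 were the factors with the widest difference. Nkx2-5, whose protein starts the cardiac program with Gata4 and is needed for the conduction system, was at 50.9, 48.8 and 14.2 FPKM (saline libraries 1, 2, 3) against 21.1, 22.0 and 27.0 (ISO libraries 1, 2, 3). Saline 1 and 2 lay above every ISO library and saline 3 below all of them, so the groups of 3 overlapped. The ISO mean was 23.4 ± 3.14 FPKM (SD, n = 3), a ratio of 0.468 to the mean of saline 1 and 2 (49.9 FPKM). Its log2 fold change was -0.49 (SE 0.48, limma adjusted p = 0.715) with all libraries and -1.07 (SE 0.17, adjusted p = 0.335) without saline 3. These values rested on 67 to 856 reads per library, and the 95% counting intervals (exact Poisson, counting error only) spanned 44.7 to 53.2 FPKM for saline 2 but only 18.7 to 23.8 FPKM for ISO 1. These intervals do not overlap. The interval of saline 3 (11 to 18 FPKM) overlapped neither and lay below both, so such gaps were also found within saline. The gene spans positions 26838664 to 26844988 of chromosome 17 on GRCm38.

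Tbx5, a T-box activator of Nppa and of the connexin gene Gja5 and more abundant in atria than in ventricles of the adult heart, showed the same arrangement. It was at 33.3, 38.3 and 7.92 FPKM (saline libraries 1, 2, 3) against 19.1, 17.9 and 23.1 (ISO libraries 1, 2, 3). Its log2 fold change was -0.13 (SE 0.55, limma adjusted p = 0.929) with all libraries and -0.81 (SE 0.18, adjusted p = 0.335) without saline 3, where the ISO mean of 20.0 FPKM was 0.560 of the mean of saline 1 and 2. Tbx5 lies at positions 119796514 to 119885220 of chromosome 5. Neither factor passed in either fit. With sample quality weights in limma, which set saline 3 to a weight of 0.0772 and ISO 2 to 5.50, both passed as lower in ISO: Nkx2-5 at -1.12 (adjusted p = 0.0155) and Tbx5 at -0.83 (adjusted p = 0.0331). In that fit 2 of 10 factors were called, against 6.26% of all genes, and both were lower, against 2.01% of all genes.

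Nr2f1 and Mef2c were also lower in all ISO libraries than in saline 1 and 2, by less. Nr2f1 was at 4.61, 4.60 and 0.620 FPKM (saline libraries 1, 2, 3) against 2.33, 2.96 and 3.37 (ISO libraries 1, 2, 3). It rested on 7 reads in saline 3, with a counting interval of 0.249 to 1.28 FPKM. Its log2 fold change was 0.06 (SE 0.51) with all libraries and -0.54 (SE 0.20, limma adjusted p = 0.450) without saline 3, so its sign hung on that library. Mef2c, which cardiac and endothelial cells make, was at 13, 11.7 and 7.64 FPKM (saline libraries 1, 2, 3) against 10.3, 9.95 and 10.7 (ISO libraries 1, 2, 3). Its log2 fold change was -0.03 (SE 0.26) with all libraries and -0.24 (SE 0.16, limma adjusted p = 0.659) without saline 3. With saline 3 left out, ISO lay wholly below saline for these 4 of the 10 factors, a separation found in 9.61% of all genes (27.9% in either direction). Of the 10 factors, 3 (these 4 without Mef2c) were lower with an unadjusted limma p under 0.05, against 3.41% of all genes in that direction. No factor lay wholly above.

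**Figure D3:**
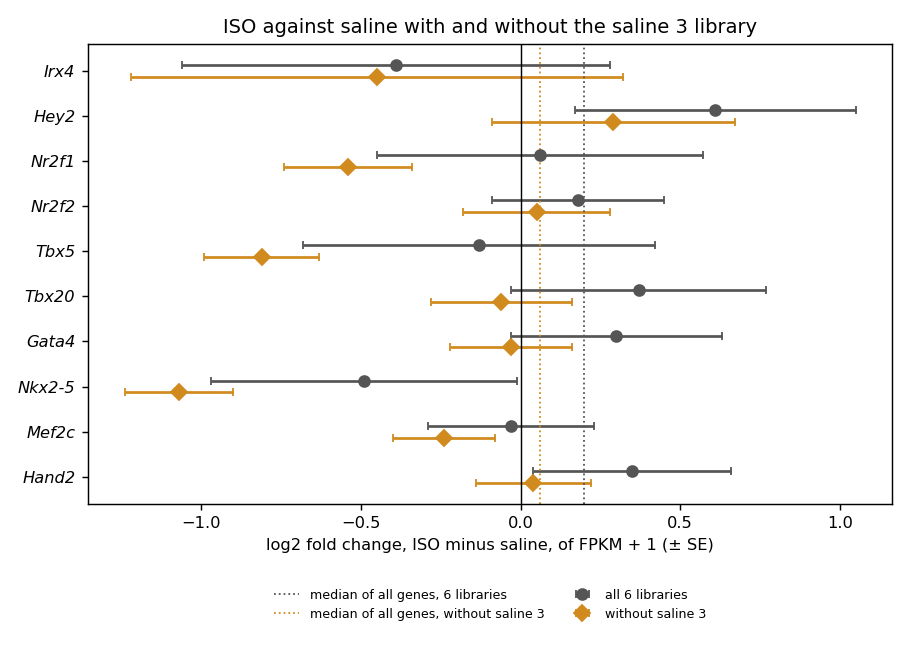
Log2 fold change (ISO minus saline, FPKM + 1) with its standard error for each factor, in grey with all 6 libraries and in orange without saline 3, with dotted lines at the median of all genes tested (0.20 and 0.06). Leaving out saline 3 moves Nkx2-5, Tbx5 and Nr2f1 to -1.07, -0.81 and -0.54, and leaves Gata4, Tbx20, Hand2 and Nr2f2 near 0.

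Gata4, Tbx20 and Hand2 did not follow Nkx2-5 and Tbx5. Gata4, which opens chromatin at heart genes, was at 32.6, 23.4 and 13.5 FPKM (saline libraries 1, 2, 3) against 28.3, 27.5 and 25.6 (ISO libraries 1, 2, 3). All 3 ISO values lay between saline 1 and saline 2. Its log2 fold change was 0.30 (SE 0.33) with all libraries and -0.03 (SE 0.19, limma adjusted p = 0.979) without saline 3. Tbx20, which acts as activator and repressor in adult muscle, was at 17.4, 14.1 and 5.85 FPKM (saline libraries 1, 2, 3) against 14.2, 12.5 and 18.9 (ISO libraries 1, 2, 3), with log2 fold changes of 0.37 (SE 0.40) and, without saline 3, -0.06 (SE 0.22). Hand2, a factor of right ventricular development, was at 33.8, 41.4 and 19.2 FPKM (saline libraries 1, 2, 3) against 39.5, 42.1 and 34.1 (ISO libraries 1, 2, 3), with log2 fold changes of 0.35 (SE 0.31) and, without saline 3, 0.04 (SE 0.18). In these 3 factors the ISO libraries lay within or close to the range of saline 1 and 2.

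Within each library the level of Nkx2-5 relative to Gata4 was therefore lower in ISO than in saline 1 and 2. The ratio was 1.56, 2.08 and 1.05 (saline libraries 1, 2, 3) against 0.747, 0.800 and 1.05 (ISO libraries 1, 2, 3). The ratio of Tbx5 to Tbx20 was 1.92, 2.72 and 1.35 (saline libraries 1, 2, 3) against 1.35, 1.44 and 1.22 (ISO libraries 1, 2, 3). For both ratios saline 3 sat with the ISO libraries. Such ratios do not depend on library scaling, and they were chosen after the values were seen.

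Muscle genes of both chambers were lower in ISO, as Nkx2-5 and Tbx5 were when saline 3 was left out. All 12 of a list of sarcomere and calcium genes (among them Tnnt2, Tnnc1, Myh6 and Ryr2) were lower in ISO by mean log2 difference. Their median was -0.65 with all libraries and -0.67 without saline 3, and none passed the adjusted threshold. Of all genes tested, 31.9% were lower with all libraries (median 0.20) and 40.8% without saline 3 (median 0.06). Of 12 atrial genes tested, 7 were higher and 5 lower by mean log2 difference with all libraries (median 0.09). Without saline 3, 11 were lower (median -0.47), and for 5 ISO lay wholly below saline 1 and 2, against 9.61% of all genes. The geometric mean of the 12 muscle genes of both chambers was 1134, 974 and 956 FPKM (saline libraries 1, 2, 3) against 800, 753 and 454 (ISO libraries 1, 2, 3). By this mean saline 3 lay above every ISO library, whereas it was the lowest library for Nkx2-5 and for Tbx5. In bulk tissue, fewer muscle cells and less RNA per cell cannot be told apart. Per 1000 FPKM of that mean, Nkx2-5 stood at 44.9, 50.1 and 14.8 (saline libraries 1, 2, 3) against 26.4, 29.2 and 59.4 (ISO libraries 1, 2, 3). On this scale ISO 1 and 2 remained below saline 1 and 2, while ISO 3 was above them. Tbx5 on the same scale was at 29.4, 39.4 and 8.29 (saline libraries 1, 2, 3) against 23.9, 23.8 and 50.9 (ISO libraries 1, 2, 3), with ISO 3 again the highest. Hand2 was at 29.8, 42.5 and 20.1 (saline libraries 1, 2, 3) against 49.4, 55.9 and 75.2 (ISO libraries 1, 2, 3), so that every ISO library was above every saline library. On this scale the same separation held for Gata4, Tbx20, Nr2f2 and Mef2c, of which Mef2c, at 11.4, 12.1 and 7.99 (saline) against 12.9, 13.2 and 23.6 (ISO), had ISO below saline 1 and 2 in FPKM. The geometric mean used as divisor was itself lower in every ISO library than in every saline library, which raises ISO values on this scale. The share of all genes with this separation was not computed, so the separation is not read as a result about the factors.

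Irx4, the ventricle-restricted Iroquois homeobox factor, gave the widest range of the 10, with a highest value 13.3 times the lowest. It was at 10.3, 2.44 and 4.53 FPKM (saline libraries 1, 2, 3) against 5.88, 6.78 and 0.778 (ISO libraries 1, 2, 3). Saline 1 was the highest and ISO 3 the lowest library, and the groups overlapped. The ISO 3 value rested on 17 reads, with a counting interval of 0.453 to 1.25 FPKM, below that of ISO 1 (5.03 to 6.84 FPKM) and of saline 2 (1.86 to 3.14 FPKM). Within saline, the intervals of saline 1 (9.32 to 11.4 FPKM) and saline 2 did not overlap either. The log2 fold change was -0.39 (SE 0.67, limma adjusted p = 0.816) with all libraries, -0.45 (SE 0.77) without saline 3, and 0.29 (SE 0.53) without ISO 3. Irx4 lies at positions 73259589 to 73269622 of chromosome 13.

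Irx4 and the ventricular light chain Myl2 had the same order over 4 levels when saline 3 was set aside. Myl2 was at 2566 and 526 FPKM in saline 1 and 2 and at 1985, 1962 and 140 FPKM in ISO 1 to 3, so both genes were highest in saline 1, intermediate in ISO 1 and 2, lower in saline 2 and lowest in ISO 3. In saline 3 they parted: Myl2 was at 9101 FPKM, the highest of the 6 libraries, and Irx4 was only the fourth. Fhl2, another ventricular gene, was at 262, 135 and 545 FPKM (saline libraries 1, 2, 3) against 267, 250 and 61.7 (ISO libraries 1, 2, 3). Myl2, Myl3 and Fhl2 were lowest in ISO 3, but the rest of the ventricular list was not. Gja1 was lowest in saline 3 (24.8 FPKM) and Myh7 in ISO 1 (62.2 FPKM). Lbh, Kcne1 and Mpped2 were lowest in saline 2 (13.6, 0.0466 and 0.267 FPKM). By the root mean square difference of centred log2 values over 6 libraries, the genes most like Irx4 among 8235 with a mean of at least 5 FPKM were Kcnip2 (0.29), Tmem82 (0.37) and Dnaaf3 (0.37), where Irx4 itself varied by 0.87 around its mean. Kcnip2, an accessory subunit of a transient outward potassium channel, was at 40.8, 16.1 and 36.0 FPKM (saline libraries 1, 2, 3) against 34.1, 32.7 and 5.84 (ISO libraries 1, 2, 3). Fhl2 came 185th and Myl2, with its far wider range, 7534th.

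**Figure D4:**
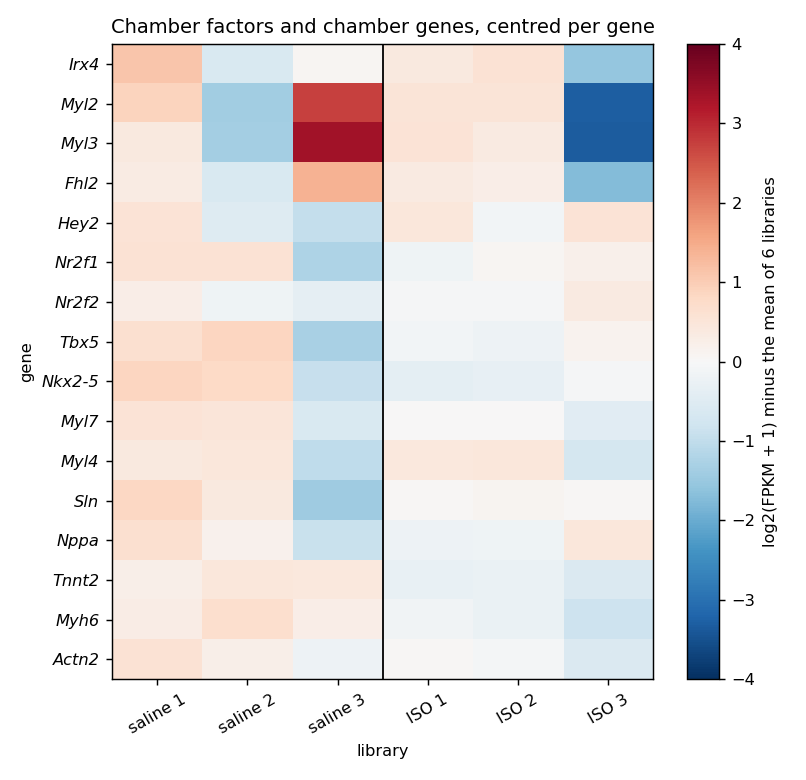
Log2(FPKM + 1) minus the mean of the 6 libraries for chamber factors and chamber genes (rows) in each library (columns), red above and blue below the mean, with a line between saline and ISO. Irx4, Myl2, Myl3 and Fhl2 are low in saline 2 and lowest in ISO 3, while Hey2, Nr2f1, Nr2f2, Tbx5 and Nkx2-5 are lowest in saline 3.

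Hey2, a repressor that is best known from compact ventricular muscle and from arteries, did not keep to the pattern of Irx4. It was at 5.09, 1.88 and 1.14 FPKM (saline libraries 1, 2, 3) against 4.71, 2.84 and 5.06 (ISO libraries 1, 2, 3). ISO 3, the lowest library for Irx4, was the second highest for Hey2. The ratio of Irx4 to Hey2 was 0.154 in ISO 3, with a range of 1.25 to 3.98 in the other 5 libraries. Hey2 had the highest log2 fold change of the 10 at 0.61 (SE 0.44, limma adjusted p = 0.699), and 0.29 (SE 0.38) without saline 3. It rested on 8 reads in saline 3 and 30 in saline 2, with counting intervals of 0.491 to 2.24 and 1.27 to 2.68 FPKM that overlap. Arterial endothelial markers (5 genes, among them Gja4 and Efnb2) summed to 56.3, 64.0 and 28.6 FPKM (saline libraries 1, 2, 3) against 79.6, 74.1 and 96.9 (ISO libraries 1, 2, 3), and all 5 had a higher mean in ISO (median 0.83, and 0.22 without saline 3). Their part in the Hey2 values was not tested. The genes most like Hey2 were Ehhadh (0.17), Taf9b (0.20) and Dpm1 (0.20).

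Nr2f2 was the steadiest of the chamber factors. It was at 9.45, 6.63 and 5.80 FPKM (saline libraries 1, 2, 3) against 7.48, 7.31 and 10.1 (ISO libraries 1, 2, 3). The highest value was 1.75 times the lowest, and ISO 3 and saline 1 were the highest libraries. Its log2 fold change was 0.18 (SE 0.27, limma adjusted p = 0.796) and, without saline 3, 0.05 (SE 0.23). The related Nr2f1 was lower than Nr2f2 in all libraries, with a ratio of Nr2f2 to Nr2f1 of 2.05, 1.44 and 9.36 (saline libraries 1, 2, 3) against 3.21, 2.47 and 3.00 (ISO libraries 1, 2, 3). Venous markers (4 genes) summed to 39.8 to 78.9 FPKM in saline and 92.4 to 107 FPKM in ISO, and lymphatic markers (5 genes, Ccl21a at 0 throughout) to 24.1 to 61.7 and 53.5 to 82.2 FPKM. Their part in the Nr2f2 values was not tested. The genes most like Nr2f2 were Grpel2 (0.07), Ugp2 (0.07) and Rhob (0.08), and those most like Nr2f1 were Camk2d (0.08), S1pr3 (0.10) and Enah (0.10). Nr2f1, Nr2f2 and Hand2 share 123, 643 and 461 exonic bases with RNAs on the opposite strand in GENCODE M21 (A830082K12Rik, B130024G19Rik and Hand2os1). These RNAs have no row of their own under those names, and no source used here states the strand setting, so reads of the antisense partners cannot be told apart from those of the factors.

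Relatives of the 10 factors gave no uniform direction. Groups without overlap, given below for Tbx2, Irx5 and Nr2f6, were found in 16.5% of all genes. Among T-box genes Tbx2, a repressor, was at 7.74, 7.21 and 4.25 FPKM (saline libraries 1, 2, 3) against 10.9, 9.86 and 12.6 (ISO libraries 1, 2, 3), with no overlap of the groups (log2 fold change 0.74, SE 0.28, limma adjusted p = 0.699, and 0.51 without saline 3). Tbx3, of the conduction system, and Tbx18, of the epicardium and sinus horn, had log2 fold changes of -0.12 and 0.13 (-0.19 and 0.33 without saline 3). Gata6 was at 0.11 with all libraries and -0.21 without saline 3, and Gata5 at 0.18 and 0.16. Mef2a and Mef2d, more abundant than Mef2c in saline 1 and 2, were at 0.83 and 0.11 with all libraries and at -0.03 and -0.33 without saline 3, where Mef2a stood at 6.78 FPKM against 40.5 to 51.1 FPKM in the other 5 libraries. Of the Iroquois genes Irx3 was at 18.3 FPKM in saline 3 and at 4.07 to 5.91 FPKM elsewhere, Irx5 averaged 1.93 ± 0.164 FPKM with saline against 2.65 ± 0.327 FPKM with ISO (SD, 3 libraries each) with no overlap, and Irx2 was at 0.240 to 1.53 FPKM. Irx1 and Irx6 were at or under 0.941 FPKM in every library. Hey1 had 0 reads in saline 3, which allows up to 0.447 FPKM (3 reads), and was at 9.63 to 14.9 FPKM in the other 5 libraries, without saline 3 at a log2 fold change of -0.19. Heyl averaged 11.6 ± 5.23 FPKM with saline and 14.5 ± 2.56 FPKM with ISO. Nr2f6 was lower in every ISO library, averaging 6.43 ± 0.361 FPKM against 7.72 ± 0.486 FPKM with saline (limma adjusted p = 0.704). Hand1, Mef2b, Tbx1 and Nkx2-6 were at or near 0.

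In a wider list of 53 cardiac regulators and cofactors, 43 were tested and 0 passed, with 2 at an unadjusted p under 0.05 (6.31% of all genes). For 5 of the 43 ISO lay wholly above saline and for 2 wholly below. That share is near the 16.5% of all genes with either separation, so it is not read as a result about the list. By mean log2 difference 25 were higher and 18 lower in ISO (median 0.06, against 0.20 for all genes). Without saline 3 the numbers were 17 and 26 (median -0.10, against 0.06). Those with the smallest p were Id2, an inhibitor of basic helix-loop-helix factors, and Tbx2. Id2 was at 43.4, 28.9 and 19.5 FPKM (saline libraries 1, 2, 3) against 48.2, 71.1 and 92.6 (ISO libraries 1, 2, 3), with no overlap (log2 fold change 1.20, SE 0.37, limma adjusted p = 0.699, and 0.93 without saline 3). Nfatc4, a calcineurin-responsive factor, averaged 6.22 ± 3.99 FPKM with saline and 12.4 ± 2.64 FPKM with ISO (log2 fold change 1.04, and 0.55 without saline 3). Hopx, a homeodomain-only cofactor, averaged 88.3 ± 59.3 FPKM with saline and 37.6 ± 14.2 FPKM with ISO, with 155 FPKM in saline 3 (log2 fold change -1.07, and -0.56 without saline 3). Myocd, a partner of serum response factor, was lower in every ISO library, averaging 5.68 ± 0.703 FPKM against 9.77 ± 4.22 FPKM with saline (limma adjusted p = 0.699). With sample quality weights 2 of the 43 passed in limma, Klf15 and Ppargc1a, against 6.26% of all genes, and they are named for that reason after their values were seen. Without weights neither passed: Klf15 was at -0.26 with all libraries and -0.57 without saline 3 (adjusted p = 0.744 and 0.385), and Ppargc1a at -0.21 and -0.54 (adjusted p = 0.809 and 0.426).

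Genes known as targets of the factors leaned to lower values in ISO. Of 16 such genes 15 were tested, 0 passed, and 11 were lower in ISO by mean log2 difference (median -0.19), as 31.9% of all genes were. Without saline 3 all 15 were lower (median -0.56), against 40.8% of all genes, and for 8 of them ISO lay wholly below saline 1 and 2, against 9.61% of all genes. The smallest p belonged to Myh7 and Myh6, the slow and fast myosin heavy chains, each with a log2 fold change of -0.82 (limma adjusted p = 0.699 for both). The next 2 genes were picked after their values were seen. Nppb, the B-type natriuretic peptide, was at 274, 188 and 29.0 FPKM (saline libraries 1, 2, 3) against 63.5, 59.4 and 238 (ISO libraries 1, 2, 3). Slc8a1, the sodium-calcium exchanger, was at 16.7, 9.95 and 3.03 FPKM (saline libraries 1, 2, 3) against 7.46, 6.91 and 7.76 (ISO libraries 1, 2, 3). Gja5, the connexin of atria and conduction tissue, was at 26.1, 18.4 and 6.00 FPKM (saline libraries 1, 2, 3) against 15.9, 18.4 and 7.95 (ISO libraries 1, 2, 3). Several of these genes are muscle genes themselves, and the part of muscle content was not tested. Tbx20 is itself one of the 10 factors. Other targets also stand in the lists above, Myh6 and Actc1 among genes of both chambers and Nppa, Gja5 and Bmp10 among atrial genes. The target counts are therefore not separate from those of these lists.

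Markers of other cells that make these factors were mostly higher in ISO, as were most genes. All counts here are by mean log2 difference, which can differ in sign from the difference of mean FPKM. Of all 12269 genes tested, 8351 were higher in ISO (median 0.20), and 7251 were higher without saline 3 (median 0.06). Fibroblast markers had 7 of 8 higher in ISO (median 0.80, and 0.52 without saline 3). Their summed levels were 1530 to 2113 FPKM in saline and 1975 to 2956 FPKM in ISO. Endothelial markers had 8 of 8 higher (median 0.44) and endocardial markers 4 of 4 (median 0.57), which without saline 3 became 6 of 8 (0.08) and 2 of 4 (0.05). The corresponding summed endothelial levels were 348 to 794 FPKM in saline and 694 to 891 FPKM in ISO, with saline 3 the lowest. Epicardial markers had 4 of 5 higher (median 0.49, and 0.08 without saline 3) and smooth muscle and pericyte markers 6 of 8 (0.05, and 0.22 without saline 3). Conduction system markers had 2 of the 4 tested higher (0.01, and -0.23 without saline 3), with Hcn4 at or under 0.584 FPKM in every library. Macrophage markers had 6 of 6 higher (1.13, and 1.04 without saline 3), and B-cell markers, of a cell type that also makes Mef2c, 3 of 4 (0.21) with summed levels of 56.6 FPKM in ISO 3 and 6.46 to 20.1 FPKM in the others. None of these markers passed the adjusted threshold, and their part in the levels of Gata4, Tbx20, Hand2 and Mef2c was not tested.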

How the data were processed

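Polyadenylated RNA of 3 saline and 3 ISO libraries was sequenced by the authors. The deposited values are FPKM, 1 column per library, for 21989 symbols. Per the submitters' processing notes, the build was GRCm38 and the tools were HISAT2 2.1.0, Cufflinks 2.2.1, HTSeq 0.7.2, fastp 0.20.0, CASAVA 1.8 and DESeq, with no role stated. Annotation release and strand setting are not given in the sources used. FPKM divides by gene length and library total, so a few abundant genes that rise lower all others.

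Whole reads and library totals were worked back from the FPKM step sizes for 16816 genes, which is 100% of the genes detected in 2 or more libraries (tolerance 0.0001 reads), and the implied lengths were whole numbers of bases. Reads are the smallest that fit. Values were tested as log2(FPKM + 1) over 12269 genes with a mean of at least 1 FPKM, a threshold all 10 factors passed, with limma 3.58.1 in R 4.3.3 (trended prior variance, no covariate), adjusting p by Benjamini-Hochberg over all genes. Fold changes are on this scale and understate low genes. Both steps were run on simulated data with the same dispersion in every library. That setting held no outlying library, so it does not cover data with one such as saline 3. Other steps used scipy 1.17.1, pandas 2.3.3 and numpy 2.4.6 under Python 3.11.15. No 2 libraries agreed within sampling noise: the closest pair, ISO 1 and ISO 2, had a median chi-square 4.47 times what sampling gives, so all 6 were counted as samples. The members and gene lists were chosen with earlier results of these data known. Named genes are the members, up to 4 genes of each list by smallest p, any gene of the atrial, ventricular and both-chamber lists, family relatives and the 3 genes nearest in pattern. Markers given to check tissue, and genes said to be picked after their values were seen, are outside it. Alternatives were other pseudocounts, filters, scalings, quality weights, a replicate block, limma-voom on recovered reads and each library left out. Leaving out saline 3 and ISO 3 together was added after seeing the data. Positions are RefSeq on GRCm38.p6.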

Additional observations from a re-analysis of the deposited data

How the results depend on the processing

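Across 17 alternatives the 10 factors gave 168 log2 fold changes, of which 141 kept the direction and side of the threshold, 25 reversed, 2 newly passed and 0 were lost. Nkx2-5 stayed lower in ISO in all of them, and Hand2 higher. Sample quality weights called 768 genes in limma, including 2 factors (Nkx2-5, Tbx5) and 2 other cardiac regulators. They gave Hey2 -0.21, Nr2f1 -0.52, Nr2f2 -0.18, Tbx20 -0.28 and Gata4 -0.10. Median-of-ratios scaling gave Nr2f1 -0.07 and Nr2f2 -0.03, quantile normalization Nr2f1 -0.26 and Nr2f2 -0.07, limma-voom on recovered reads Nr2f1 -0.29, and scaling to a common sum Mef2c 0.08. Of the 10 factors 4 were lower in ISO as deposited, 6 under median-of-ratios or quantile scaling, and 3 under the common sum. The median of all genes moved from 0.201 to 0.00551, -0.00307 and 0.297 in these scalings. Leaving out each library in turn gave 0 to 16 genes called (16 without ISO 1) and no factor, with ranges of -0.79 to 0.29 for Irx4, -0.63 to 0.36 for Nr2f1, -0.09 to 0.36 for Nr2f2, -0.91 to 0.26 for Tbx5, -0.22 to 0.65 for Tbx20, -0.03 to 0.58 for Gata4, -0.26 to 0.11 for Mef2c, 0.16 to 1.04 for Hey2, -1.17 to -0.18 for Nkx2-5 and 0.04 to 0.57 for Hand2. These ranges include leaving out saline 3 and ISO 3 together, chosen after seeing the data, which gave Irx4 0.23, Nr2f1 -0.63, Nr2f2 -0.09, Tbx5 -0.91, Tbx20 -0.22 and Mef2c -0.26. The cause of these reversals was not tested. With the replicate number as a block (replicate block), 0 genes and 0 factors were called. The deviations of same-numbered libraries from their group means correlated across genes at 0.01, -0.15 and -0.03. With 3 libraries per group, these values cannot show whether the numbers pair the samples. A mean of at least 5 FPKM left out Hey2 and Nr2f1. limma called 0 genes as reported, with 774 at an unadjusted p under 0.05 (676 with limma-voom, which also called 0). Depth limits Hey2, Nr2f1 and Irx4 most, with 8, 7 and 17 reads in their lowest libraries.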
